A study of Bos taurus with 14 samples.

Results

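*CD40*, *TRAF1*, *TRAF2* and *MAPK11*, which encode a receptor, a pair of its adaptors and a kinase, were followed across all 14 libraries of an experiment on bovine endometrium. They are 4 of the 24616 genes counted, and all 4 passed the filter of 10 or more counts in each library, as 13233 genes did. They were selected on the response itself, since a DESeq2 adjusted p below 0.1 for sPIF against Control placed each of them among the changed genes. Their sPIF values are therefore a description with no test, and tests were kept to sequencing lane, progesterone group, the interactions of both with sPIF, and the relations among the genes.

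Uteri with stage IV ovaries came from 7 heifers at an abattoir, and intercaruncular endometrium dissected from the myometrium was cultured as whole-tissue explants. Of the explants of each cow, 1 cultured for 30 h with 100 nM sPIF and 1 Control explant were sequenced. The sPIF peptide is the synthetic form of preimplantation factor, which embryos secrete. Control explants were kept in medium with an equal amount of DMSO, the solvent of the peptide. Lane 1 held cows 1 to 4 and lane 2 cows 5 to 7. By serum progesterone, cows 2 to 5 formed the high group and cows 1, 6 and 7 the low group, so lane 1 held 3 high and 1 low cow and lane 2 held 1 high and 2 low cows. Libraries held 15885642 to 28625724 counts in total (median 18886976), and levels are given as CPM, which are counts scaled to a common library size after TMM normalisation. CPM values are not corrected for transcript length, so levels were compared between libraries and never between genes.

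CD40 is a receptor of the tumour necrosis factor receptor superfamily, best known from antigen-presenting cells and also found on endothelium and epithelium, where it is engaged by CD40 ligand of activated T cells. Its cytoplasmic tail recruits TRAF adaptors. TRAF2 links the receptor to the NF-κB and MAP kinase cascades, and TRAF1, which lacks the RING domain of TRAF2, binds TRAF2 and is itself induced by NF-κB. MAPK11 is p38β, a stress-activated MAP kinase downstream of many cytokine receptors.

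*CD40* (ENSBTAG00000020736), the receptor, lay between 19.4 and 50.4 CPM in the Control explants with a median of 32.4 CPM. In the sPIF explants it lay between 12.4 and 33.5 CPM with a median of 23.0 CPM. In both groups cow 2 was lowest and cow 7 highest, and the groups overlapped, with 2 sPIF explants below every Control explant and 2 Control explants above every sPIF explant. Since an explant is a mixture of cells, fewer cells of a type and less RNA per cell cannot be told apart. Within cows the order was the same throughout: the sPIF explant held between 64.0% (cow 2) and 88.7% (cow 4) of the CPM of its Control, with a median of 79.9%. The mean was 31.2 ± 10.5 CPM (SD, n = 7) in Control and 23.5 ± 6.93 CPM (SD, n = 7) in sPIF explants, and the log2 fold change was -0.40 (SE 0.089).

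*TRAF1* (ENSBTAG00000003012), the adaptor that NF-κB induces, lay between 27.5 CPM (cow 1) and 108 CPM (cow 5) in the Control explants, with a median of 66.6 CPM. The sPIF explants lay between 19.9 CPM (cow 2) and 82.3 CPM (cow 7), with a median of 49.7 CPM. The Control explants thus spanned 3.91-fold, the widest span of the 4 genes in that group, and the groups overlapped. Cow 1 was the exception in direction, with 101% of the Control CPM in its sPIF explant, and cow 5 had the lowest share, at 52.7%. The median over the 7 cows was 74.6%. The log2 fold change was -0.44 (SE 0.11), with means of 64.0 ± 29.8 CPM (SD, n = 7) in Control and 46.5 ± 20.7 CPM (SD, n = 7) in sPIF explants.

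*TRAF2* (ENSBTAG00000010497), the adaptor that connects receptor and kinases, lay between 29.9 and 73.0 CPM in the Control explants with a median of 41.9 CPM. The sPIF explants lay between 22.8 and 58.3 CPM with a median of 36.7 CPM. The Control values fell into a lower set from cows 1 to 4 and a higher set from cows 5 to 7, which is the division by lane described further on. Within cows the sPIF explant held between 64.1% (cow 6) and 92.9% (cow 4) of the Control CPM, with a median of 76.1%. Control explants averaged 52.0 ± 19.1 CPM (SD, n = 7) and sPIF explants 39.4 ± 12.7 CPM (SD, n = 7), and the log2 fold change was -0.38 (SE 0.080).

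*MAPK11* (ENSBTAG00000030182), the kinase, was counted far less often, with 25 to 119 counts per library against 208 to 987 for *CD40*. It lay between 2.33 and 6.59 CPM in the Control explants, with a median of 4.64 CPM, and between 1.20 and 3.96 CPM in the sPIF explants, with a median of 2.77 CPM. Of the Control explants, 4 lay above every sPIF explant, while 1 sPIF explant lay below every Control explant. The sPIF explant held between 50.5% (cow 6) and 95.2% (cow 2) of the Control CPM, with a median of 59.6%. Control explants averaged 4.39 ± 1.85 CPM and sPIF explants 2.73 ± 0.857 CPM (SD, n = 7 each), and the log2 fold change was -0.65 (SE 0.16).

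**Figure D1:**
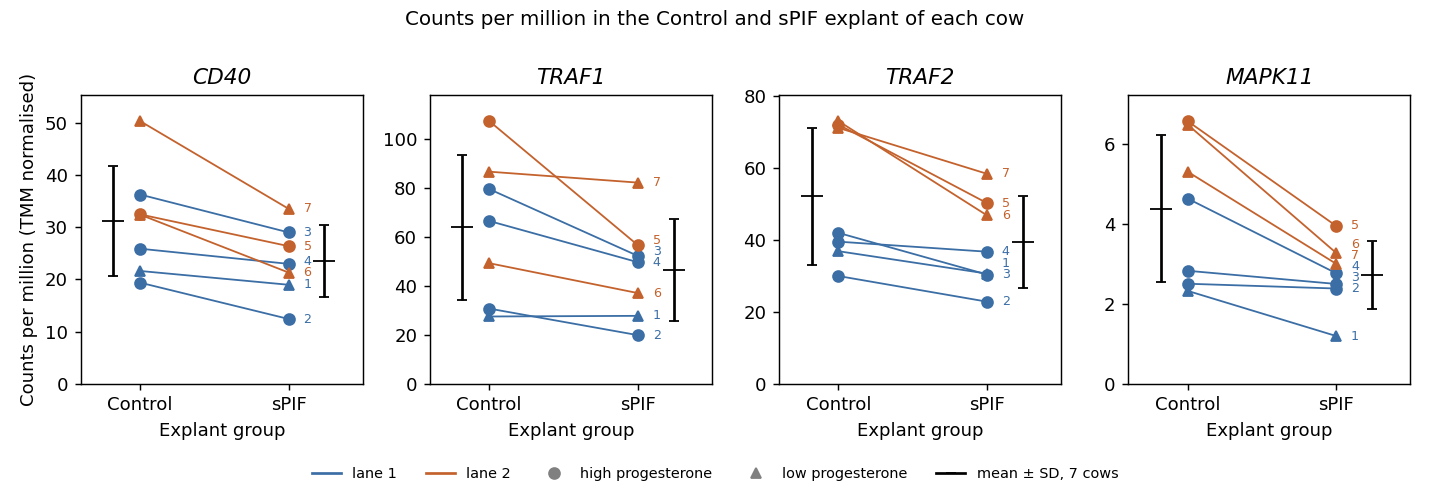
CPM of each gene in the Control and sPIF explant of each cow, on linear axes that start at 0 and differ between genes; lines join the explants of a cow, whose number stands at the right, colours give the lane, symbols the progesterone group, and black marks the mean ± SD of 7 cows. The lines descend for every cow and gene except *TRAF1* in cow 1, and for *TRAF2* the lane 2 cows lie above the lane 1 cows in both groups.

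The depth set how closely each cow's difference could be read. The standard error that counting alone gives to a within-cow log2 difference averaged 0.092 for *CD40*, 0.068 for *TRAF1* and 0.071 for *TRAF2*, against a spread between cows of 0.20, 0.33 and 0.18 (SD of the within-cow log2 difference, n = 7). For *MAPK11* it averaged 0.26 and reached 0.37 in cow 1, against a spread of 0.36. The spread among cows in *MAPK11* was thus not far above counting error, whereas for the other genes it was more clearly above it. Intervals and errors of this kind cover counting error only.

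The sPIF explant was below its Control in 7 of 7 cows for *CD40*, *TRAF2* and *MAPK11*, which was the case for 1.60% of the 13233 genes, and in 6 of 7 cows for *TRAF1*. At least 6 of 7 cows were lower for 9.53% of the genes. Because the genes were selected on this contrast, nothing is read from these shares. The 95% interval from counting error lay below 0 in 5 of 7 cows for *CD40*, *TRAF1* and *MAPK11*. For *TRAF2* it did so in 6 of 7 cows. In the edgeR quasi-likelihood test, 0 of 13233 genes (0%) passed an adjusted p of 0.1 for sPIF, and 1061 had an unadjusted p below 0.05, while limma-voom gave 0 genes and the DESeq2 Wald test 100 genes (0.756%), the 4 genes among them. In that DESeq2 fit *TRAF1* was just inside the threshold of the selection, at an adjusted p of 0.0962, and *MAPK11* was the next of the 4 at 0.0814. With genes kept at 10 counts in at least 1 library, *MAPK11* was just outside, at 0.107, and *TRAF1* inside, at 0.0987.

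Sequencing lane separated the cows in *TRAF2*. In lane 1 the Control explants of cows 1 to 4 held 36.8, 29.9, 41.9 and 39.5 CPM, and their sPIF explants 30.6, 22.8, 30.3 and 36.7 CPM. In lane 2 the Control explants of cows 5 to 7 held 72.0, 73.0 and 71.1 CPM, and their sPIF explants 50.2, 46.8 and 58.3 CPM. Every lane 2 explant, treated or not, was therefore above every lane 1 explant. With the counts of both explants of a cow summed, *TRAF2* was 1.78-fold higher in lane 2 (log2 difference 0.83, SE 0.14, adjusted p = 0.0046 by the edgeR quasi-likelihood test). On the mean log2 CPM of each cow, the exact two-sided permutation test over the 35 ways to divide 7 cows into 4 and 3 gave p = 0.0286, the smallest it allows.

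*MAPK11* had the same order with a smaller gap. Its lane 1 Control explants held 2.33, 2.51, 2.83 and 4.64 CPM against 6.59, 6.50 and 5.32 CPM in lane 2. The lane 1 sPIF explants held 1.20, 2.39, 2.50 and 2.77 CPM against 3.96, 3.28 and 3.01 CPM in lane 2. Within each treatment the lanes did not overlap, although the sPIF explants of lane 2 lay within the range of the Control explants of lane 1. The log2 difference on summed counts was 0.81 (SE 0.27, adjusted p = 0.0529 by edgeR; exact two-sided permutation p = 0.0571). This call was lost with the sPIF explants alone (0.63, adjusted p = 0.179 by edgeR). It was also lost when cow 2, 5 or 6 was left out, with log2 differences of 0.77, 0.74 and 0.77 (adjusted p = 0.116, 0.139 and 0.136 by edgeR). Over the alternatives the adjusted p ranged from 0.0231 by DESeq2 to 0.179 by edgeR.

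The receptor and *TRAF1* did not pass this test. *CD40* was 38.4 ± 10.4 CPM (SD, n = 3) in the Control explants of lane 2 and 25.8 ± 7.50 CPM (SD, n = 4) in those of lane 1, and the ranges of the cows overlapped. Its log2 difference was 0.43 (SE 0.26, adjusted p = 0.249 by edgeR; exact permutation p = 0.2), and among the alternatives it passed only without cow 3 (0.65, adjusted p = 0.0624 by edgeR), in a range of 0.0624 to 0.550. *TRAF1* was 81.2 ± 29.5 CPM (SD, n = 3) in lane 2 and 51.1 ± 26.0 CPM (SD, n = 4) in lane 1, again with overlap, and its log2 difference was 0.59 (SE 0.39, adjusted p = 0.290 by edgeR; exact permutation p = 0.229). So 2 of the 4 genes differed between lanes, both higher in lane 2, where 39.6% of all tested genes differed and 19.6% were higher in lane 2. The cow means of *TRAF2* and *MAPK11* did not overlap between lanes, which with lane 2 higher held for 20.0% of all tested genes. No result about the 4 genes as a group is read from these counts. The lanes shared no cow, and only the lane 2 libraries were sums of repeated runs. Lane, the repeated runs and the cows in each lane therefore cannot be told apart.

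Ordered by their means, the 4 combinations of lane and treatment had the same sequence for each gene: lane 2 Control, lane 2 sPIF, lane 1 Control and lane 1 sPIF. For *TRAF2* these were 72.0 ± 0.943, 51.8 ± 5.94, 37.0 ± 5.18 and 30.1 ± 5.69 CPM (SD, n = 3 in lane 2 and n = 4 in lane 1), and only the last pair overlapped. For *MAPK11* they were 6.13 ± 0.709, 3.41 ± 0.489, 3.08 ± 1.06 and 2.21 ± 0.697 CPM, and only the first pair was apart. For *CD40* and *TRAF1* all neighbours in the order overlapped. The middle means of *CD40* were close, at 27.1 ± 6.14 CPM in lane 2 sPIF and 25.8 ± 7.50 CPM in lane 1 Control explants. The steps from Control to sPIF within a lane follow from the selection of the genes, so nothing is read from the shared sequence. How many of all tested genes had this sequence was not counted.

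The share of the variation that fell between lanes differed accordingly. Of the total sum of squares of log2 CPM over the 14 libraries, differences between cows took up 78.5% for *CD40*, 85.8% for *TRAF1*, 83.3% for *TRAF2* and 67.8% for *MAPK11*, against a median of 75.6% over all tested genes. The part of this that lay between lanes was 26.9% for *CD40* and 25.4% for *TRAF1*, close to the median gene at 27.9%. It was 73.4% for *TRAF2* and 44.5% for *MAPK11*. The sPIF treatment, on which the genes were selected, took up 17.7%, 9.62%, 14.1% and 25.2% in the order given, with a median of 2.32% over all tested genes.

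The groups of high and low serum progesterone, all with stage IV ovaries, were compared to ask whether the level of these genes differed between them. In the Control explants *CD40* was 28.5 ± 7.45 CPM (SD, n = 4) in the high and 34.8 ± 14.5 CPM (SD, n = 3) in the low group. *TRAF1* was 71.2 ± 31.9 and 54.6 ± 30.0 CPM, *TRAF2* 45.8 ± 18.2 and 60.3 ± 20.4 CPM, and *MAPK11* 4.14 ± 1.88 and 4.72 ± 2.15 CPM in the high and low groups. The cow means overlapped between the groups for each gene, as opposed to 3.38% of all tested genes whose cow means did not. On summed counts the log2 difference, high minus low, was -0.17 (SE 0.31) for *CD40*, 0.16 (SE 0.44) for *TRAF1*, -0.36 (SE 0.31) for *TRAF2* and -0.02 (SE 0.40) for *MAPK11*. With lane as a covariate these became 0.060 for *CD40*, 0.59 for *TRAF1*, -0.0045 for *TRAF2* and 0.49 for *MAPK11*. Without it the adjusted p by edgeR was between 0.852 and 0.991 and the exact permutation p between 0.343 and 0.914. None of the 4 genes and 0 of 13233 genes (0%) passed by edgeR, with 458 genes at an unadjusted p below 0.05. limma-voom gave 0 genes and DESeq2 24, none of them among the 4.

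The next comparison asked whether the difference between sPIF and Control explants itself varied with lane. The mean within-cow log2 difference was -0.50 ± 0.17 (SD, n = 3) in lane 2 and -0.33 ± 0.22 (SD, n = 4) in lane 1 for *CD40*. It was -0.47 ± 0.43 and -0.41 ± 0.30 for *TRAF1*, -0.48 ± 0.18 and -0.31 ± 0.16 for *TRAF2*, and -0.83 ± 0.12 and -0.47 ± 0.41 for *MAPK11*. The mean was lower in lane 2 for each gene, while the edgeR interaction was below 0 for 6661 of the 13233 genes. For *TRAF1* the interaction turned positive without cow 1 (0.086) or cow 5 (0.17). Nothing is read from the shared direction. The cows of the lanes overlapped in 4 of 4 genes, where 11.6% of all tested genes had lanes apart. The edgeR interaction gave adjusted p between 0.667 and 0.942 for the 4 genes, and the exact permutation test p between 0.229 and 0.886. For all tested genes it gave 0 calls (0%) with 1516 at an unadjusted p below 0.05. limma-voom gave 0 and DESeq2 175 calls, none of them among the 4, although DESeq2 gave *MAPK11* no adjusted p.

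By progesterone group, the differences of *TRAF1* and *MAPK11* were ordered in opposite ways, though neither passed its test. The within-cow log2 difference of *TRAF1* was -0.63, -0.61, -0.42 and -0.92 in cows 2 to 5 of the high group. In the low group it was 0.01, -0.41 and -0.08 in cows 1, 6 and 7. These values did not overlap, but the nearest of them, those of cows 4 and 6, were closer to each other than their counting error. On average the high group had -0.64 ± 0.21 (SD, n = 4) and the low group -0.16 ± 0.22 (SD, n = 3). The interaction was -0.49 (SE 0.18), with an unadjusted p of 0.0228 and an adjusted p of 1.00 by edgeR, and the exact permutation test gave p = 0.0571.

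For *MAPK11* the differences were -0.07, -0.17, -0.73 and -0.72 in cows 2 to 5 of the high group. They were -0.91, -0.97 and -0.80 in cows 1, 6 and 7 of the low group. Here the low group had the more negative differences, again without overlap, but the nearest cows, 4 and 7, were also closer to each other than their counting error. The interaction was 0.47 (SE 0.31, adjusted p = 1.00 by edgeR; exact permutation p = 0.114). For *CD40* and *TRAF2* the groups overlapped, with interactions of 0.11 (SE 0.19) and 0.03 (SE 0.17). Differences without overlap, as in 2 of the 4 genes, were found in 3.13% of all tested genes. Over all genes 0 (0%) passed by edgeR, 187 had an unadjusted p below 0.05, and DESeq2 and limma-voom gave 0. The exact tests of lane, progesterone group and both interactions were 16 in all, unadjusted.

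**Figure D2:**
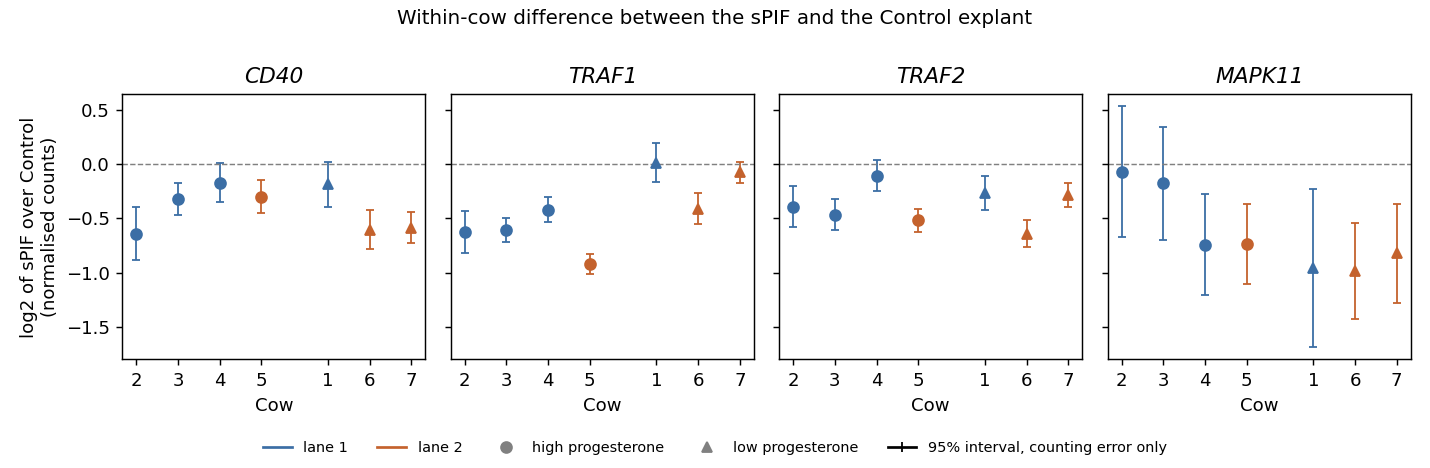
Within-cow log2 ratio of normalised counts, sPIF over Control, for each gene, with cows of the high progesterone group at the left and of the low group at the right of each panel; bars are 95% intervals from counting error only, colours give the lane, and the dashed line marks no difference. *TRAF1* lies lower in the high group and *MAPK11* lower in the low group, and the bars of *MAPK11* are the widest.

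Whether cows with a more negative difference in one gene also had it in another was examined for the 6 pairs of genes. For *TRAF1* and *MAPK11* Pearson's r was -0.49 (exact permutation p = 0.259, adjusted over the 6 pairs 0.558, n = 7). Spearman's rho was -0.79 (exact permutation p = 0.0480, adjusted 0.288), and r was -0.74 without cows 1 and 5, the farthest from the median of *TRAF1*, and -0.65 after centring within lanes. The same differences had the opposite orders by progesterone group given above, so this relation is not a separate observation. Centring within progesterone groups was not done. *CD40* with *TRAF2* gave r = 0.48 and rho = 0.57 (exact permutation p = 0.279 and 0.2, adjusted 0.558 and 0.6), r falling to 0.24 without cows 2 and 6 and to 0.33 within lanes. *TRAF1* with *TRAF2*, the adaptors that bind each other, gave r = 0.48 and rho = 0.43 (exact permutation p = 0.275 and 0.354, adjusted 0.558 and 0.707), 0.27 without cows 1 and 5 and 0.50 within lanes.

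For the receptor and *TRAF1* the relation was near 0 (r = 0.03 and rho = 0.18, exact permutation p = 0.954 and 0.713, adjusted 0.954 and 0.856), with r = -0.18 without cows 2 and 6 and -0.02 within lanes. *CD40* with *MAPK11* gave r = -0.20 and rho = -0.18 (exact permutation p = 0.572 and 0.713, adjusted 0.858 and 0.856), -0.03 without cows 2 and 6 and -0.58 within lanes. *TRAF2* with *MAPK11* gave r = -0.05 and rho = 0 (exact permutation p = 0.912 and 1, adjusted 0.954 and 1), -0.46 without cows 4 and 6 and -0.47 within lanes. No pair passed after adjustment, and each relation rests on 7 cows.

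Among the levels of the 4 genes r was positive in every pair and highest for *CD40* and *TRAF1*. Over the 14 libraries, which are 7 pairs from the same cows, the log2 CPM of this pair had r = 0.88, and r = 0.84 after centring within lanes. By r before centring, *TRAF1* ranked 10 among the 13232 other genes for *CD40*, and *CD40* ranked 19 for *TRAF1* (36 and 58 within lanes). *TRAF2* had r = 0.80 with *CD40* (0.80 within lanes), 0.75 with *TRAF1* (0.72 within lanes) and 0.80 with *MAPK11* (0.59 within lanes). Many other genes were closer to *TRAF2*, for which *CD40* ranked 897, *TRAF1* 1258 and *MAPK11* 879 before centring, and 54, 190 and 613 within lanes. *MAPK11* had r = 0.60 with *CD40* (0.40 within lanes) and 0.66 with *TRAF1* (0.50 within lanes). For *MAPK11*, *TRAF2* ranked 146, *TRAF1* 1010 and *CD40* 1558 before centring, and 513, 1019 and 1794 within lanes. These are descriptions, since the libraries share cows and the treatment by which the genes were selected.

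The genes most like each of them were taken from the 83 other tested genes with a symbol, which are themselves genes selected on the sPIF contrast. *CD40* was most like *NFKB2* (r = 0.92, rank 2 of 13232), *DENND5A* (r = 0.90) and *NFKB1* (r = 0.89), where *NFKB1* and *NFKB2* encode NF-κB subunits. *TRAF1* was most like *CD83* (r = 0.92, rank 5), a surface marker of mature dendritic cells, *FRMD6* (r = 0.90) and *CD40* (r = 0.88). *TRAF2* was most like *ZBTB2* (r = 0.96), *KDM6B* (r = 0.96), a histone demethylase, and *CEBPG* (r = 0.96), a C/EBP transcription factor. After centring within lanes these 3 values became 0.86, 0.86 and 0.82. *MAPK11* was most like *AMIGO3* (r = 0.88), *NR1D1* (r = 0.87), a circadian repressor, and *PPP1R15A* (r = 0.86), a stress-induced phosphatase subunit, which became 0.80, 0.76 and 0.73 within lanes.

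Of 116 further genes in lists of receptors and ligands, TRAF adaptors and regulators, NF-κB components, the p38 module and genes induced by CD40 or NF-κB, 10 could be matched to an identifier, and all of these were selected on the sPIF contrast as well. CD40 ligand, the other TRAFs, the other p38 kinases and their upstream kinases were not analysed here. Each of the 10 had a negative log2 fold change with sPIF, with a median of -0.74 against 0.00 over all tested genes, and since they were selected for that contrast nothing is read from it. *TNFAIP3*, the A20 inhibitor of NF-κB signalling, had -0.44 (SE 0.099). *NFKB1* had -0.57 (SE 0.11), *NFKB2* -0.32 (SE 0.084) and *NFKBIE*, an inhibitor of the subunits, -0.64 (SE 0.094), each lower in 7 of 7 cows.

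Of the 10, 5 differed between lanes at an adjusted p below 0.1 by edgeR, against 39.6% of all tested genes. *CSF1*, a macrophage growth factor, was higher in lane 2 by 1.17 on the log2 scale (SE 0.22, adjusted p = 0.0066 by edgeR), and *IRF1*, an interferon-response transcription factor, by 0.88 (SE 0.28, adjusted p = 0.0460). *NFKB2* and *NFKBIE* were higher by 0.53 (SE 0.19, adjusted p = 0.0651) and 0.76 (SE 0.27, adjusted p = 0.0632). *CX3CL1*, a chemokine named here after its value was seen, was lower, at -0.87 (SE 0.28, adjusted p = 0.0468). *NFKB1*, *TNFAIP3*, *CD83*, the adhesion receptor *SELP* and *VCAM1*, which was also named after its value was seen, did not pass. None of the 10 differed between progesterone groups, with adjusted p from 0.852 to 0.977 by edgeR.

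Marker lists of leukocytes, endothelium, epithelium, stroma, smooth muscle and other cells held 92 genes, 9 of them mitochondrial transcripts. Only *CNN1*, a smooth muscle calponin and 1 of 7 genes in its list, could be matched. These lists therefore give no account of the makeup of the explants. *CNN1*, also selected on the sPIF contrast, was 78.1 ± 46.8 CPM (SD, n = 7) in Control and 49.4 ± 34.2 CPM (SD, n = 7) in sPIF explants, and lower with sPIF in 7 of 7 cows. Like *TRAF2* and *MAPK11*, it was higher in lane 2, by 1.28 on the log2 scale (SE 0.36, adjusted p = 0.0298 by edgeR). Outside the lists, and named after their values were seen, *TPM2*, a tropomyosin, and *SMTN*, which encodes smoothelin of smooth muscle, were also selected on the sPIF contrast, with log2 fold changes of -0.43 (SE 0.095) and -0.44 (SE 0.11). Between lanes *SMTN* was higher in lane 2 by 0.91 on the log2 scale (SE 0.15, adjusted p = 0.0040 by edgeR), while *TPM2* had -0.67 (SE 0.38, adjusted p = 0.220). The part of smooth muscle or any other cell type in the values of the 4 genes was not tested.

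In the RefSeq annotation of the ARS-UCD2.0 assembly, which is not the assembly the reads were counted on, each of the 4 genes is protein coding and overlaps 0 other genes. *CD40* lies between *NCOA5* and *CDH22*, *TRAF1* between *PHF19* and *C5*, and *TRAF2* between *EDF1* and *FBXW5*. *MAPK11* lies between *PLXNB2* and *MAPK12*, a gene for another p38 kinase, whose counts were not analysed here.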

How the data were processed

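RNA of 14 explants was sequenced as paired-end reads. Per the submitters' notes and methods, the authors trimmed the reads with Trimmomatic 0.36.0, mapped them with Bowtie2 2.2.6 to UMD3.1 and counted them on Ensembl genes with featureCounts 1.4.6, adding both runs of cows 5 to 7. The resulting raw counts were deposited without normalisation. A last row of column totals, equal to the sum of the genes in each column, was left out. Strand settings of the counting are not given in the sources used here.

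Control and sPIF come from the labels, and the lane and progesterone group of each cow from the text of the paper. Explants of a cow are paired: their deviations from the group means, across genes, correlated at 0.412 to 0.764 (median 0.667). Between cows the range was -0.559 to 0.543 (median -0.121), so the ranges overlapped.

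Tests were fitted on all 13233 genes with edgeR 4.0.16 in R 4.3.3 (TMM, quasi-likelihood, cow as block, Benjamini-Hochberg adjustment). Lane and progesterone group were tested on counts summed per cow. Log2 CPM used a prior count of 2. Exact tests used the 35 divisions of the cows, or 5040 pairings for correlations. Standard errors were derived from the F statistic. Alternatives were DESeq2 1.42.0, limma-voom (limma 3.58.1), other normalisations and filters, no block, single lanes and progesterone groups, other covariates and each cow left out. The edgeR fits for sPIF and for lane were tested on simulated data.

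Symbols came from the study's list of 102 changed genes, of which 27 printed identifiers carry an extra 0 that was removed. None of the 24616 identifiers matched the RefSeq gene table. Named genes are the 4 genes, matched partners, the 3 genes of each pathway list with the smallest unadjusted p for sPIF, and the 3 genes most like each. In addition, *CX3CL1*, *VCAM1*, *TPM2* and *SMTN* were named after their values were seen. The genes and lists were chosen with earlier results of these data known.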

Additional observations from a re-analysis of the deposited data

Results flagged for a closer look

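*MAPK11* in the sPIF explant of cow 1 stood apart from the other sPIF explants. It held 1.20 CPM, from 25 counts, while the other 6 sPIF explants held between 2.39 and 3.96 CPM. On the log2 CPM scale its gap to the nearest explant was 0.571 of the whole range of the 7. The Control explant of the same cow was also the lowest of its group, at 2.33 CPM. This was 1 of 12 groups of 7 values examined, in which chance alone gives about 0.6.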

How the results depend on the processing

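The log2 fold change of each of the 4 genes for sPIF stayed negative under all 22 alternatives, between -0.49 and -0.33 for *CD40*, -0.66 and -0.15 for *TRAF1*, -0.47 and -0.31 for *TRAF2*, and -0.91 and -0.46 for *MAPK11*. The genes were selected on this contrast in these same libraries, so nothing is read from the constant sign. Without the block for cow, that is without the pairing, the log2 fold changes were -0.41, -0.46, -0.40 and -0.68. By edgeR 0 genes passed with or without the block, so calls cannot show what it does, while genes at an unadjusted p below 0.05 went from 1061 with it to 200 without. DESeq2 was not run without the block.

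Of the 4 counts of 0 by edgeR, that of the sPIF by progesterone interaction was also 0 by DESeq2, while DESeq2 gave 100 genes for sPIF (101 where 10 counts in any 1 library sufficed, an alternative chosen after seeing the data), 24 for progesterone group and 175 for the sPIF by lane interaction. The lane count, 5236 in the main analysis, was 3546 with the Control explants alone, 3697 without cow 6, 4180 with progesterone group as a covariate and 5637 by DESeq2, which spans the alternatives.

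The lane difference of *TRAF2* passed under all 16 alternatives, between 0.72 and 0.94. That of *MAPK11* did not pass with the sPIF explants alone (0.63), and lay between 0.64 and 0.99 with 1 cow left out, without passing in 3 of the 7. That of *CD40* lay between 0.24 and 0.65 with 1 cow left out and passed in 1 of the 7. That of *TRAF1* lay between 0.39 and 0.87 with 1 cow left out and passed in 0 of the 7. With progesterone group as a covariate these differences were 0.88 for *TRAF1* and 1.05 for *MAPK11*.

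Differences that passed no test moved, and in places turned. For progesterone group, with 1 cow left out, *CD40* ran from -0.37 to 0.13, *TRAF1* from -0.14 to 0.68 and *MAPK11* from -0.34 to 0.29. *TRAF2* stayed negative, from -0.60 to -0.21. With lane as a covariate *CD40* became 0.060, *MAPK11* 0.49, *TRAF1* 0.59 and *TRAF2* -0.0045. With the sPIF explants alone *TRAF1* became -0.14 and *MAPK11* 0.22, and with limma-voom *MAPK11* became 0.064. The sPIF by lane interaction of *TRAF1* ran from -0.26 to 0.17 with 1 cow left out, that of *CD40* from -0.27 to -0.12, of *TRAF2* from -0.28 to -0.096 and of *MAPK11* from -0.50 to -0.23. The sPIF by progesterone interaction of *TRAF2* ran from -0.096 to 0.088, that of *CD40* from 0.035 to 0.23, of *TRAF1* from -0.61 to -0.39 and of *MAPK11* from 0.36 to 0.58. With both interactions in 1 model the lane interaction of *TRAF1* was -0.32 and of *MAPK11* -0.20, and the progesterone interaction of *TRAF2* was -0.056 and of *CD40* 0.044. Correlations of the within-cow differences with 1 cow left out ran from -0.37 to 0.28 for *CD40* and *TRAF1* (-0.018 after centring within lanes), -0.48 to 0.25 for *CD40* and *MAPK11*, and -0.46 to 0.079 for *TRAF2* and *MAPK11*. The causes of these moves were not tested.

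The limits are few cows, with 3 in the smaller group of each comparison by lane or progesterone group, and a lane that shares no cow with the other. Further limits are low counts for *MAPK11* and symbols for few other genes of the pathway.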

Other observations

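Cow 1, in which *TRAF1* was not lower with sPIF, also had the least negative within-cow difference in 8 of the 10 matched pathway genes. Its log2 difference was -0.06 for *TNFAIP3*, -0.15 for *NFKB1*, -0.18 for *NFKBIE*, -0.04 for *IRF1*, -0.06 for *CSF1* and -0.08 for *SELP*, and it was positive for *CD83* (0.31) and *VCAM1* (0.38). In the remaining pair, *NFKB2* and *CX3CL1*, cow 4 had the least negative value, as it had in *CD40* and *TRAF2*. *MAPK11* went the other way, with -0.91 in cow 1. Among all 1261 tested genes lower in at least 6 of 7 cows, cow 1 had the least negative difference in 24.6%, cow 5 also in 24.6% and cow 4 in 16.1%. The Control explant of cow 1 was the lowest for *TRAF1* (27.5 CPM), *MAPK11* (2.33 CPM), *NFKBIE* (53.5 CPM), *VCAM1* (34.1 CPM) and *SELP* (45.2 CPM). It was not the lowest for the other matched pathway genes, and it was the highest for *CX3CL1* (70.7 CPM). Each difference contains this Control value, so the 2 are not independent. The pathway genes were selected on the same contrast, so these values are a description of cow 1 and were not tested.

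The 3 Control explants of lane 2 had nearly the same *TRAF2* level, with an SD of 0.943 CPM around 72.0 CPM, while their *TRAF1* levels ran from 49.3 to 108 CPM and their *CD40* levels from 32.4 to 50.4 CPM. No test of these spreads was made. For *TRAF2* these explants had 1301, 1314 and 1150 counts, at which counting error alone is wider than that SD. Nothing is therefore read from the closeness of the 3 values.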
